A study of Mus musculus with 34 samples.

Results

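The Sprouty, Spred and RGS genes encode proteins that dampen signalling inside cells. The 10 genes considered were Spry1, Spry2, Spred1, Spred2, Rgs1, Rgs2, Rgs3, Rgs10, Rgs14 and Rgs16. Each was taken from the probe sets (groups of short probes on the array) listed with that symbol alone, using the brightest probe set over all arrays. Such a probe set was found for 9 of the 10 genes among the 19938 genes with one, and all 9 were among the 11413 genes that reached the limit for testing. Rgs10 is not analysed here.

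RNA was measured on 34 arrays, 1 per sample, from CD4+ spleen cells of female mice aged 8 weeks from 5 inbred strains, namely A/J, 129X1/SvJ, Balb/c, DBA/2J and C57BL/6J. Cells were enriched with CD4 magnetic beads, held in serum-containing medium and split into an unstimulated sample (T0) and a sample given 10 ng/ml phorbol 12-myristate 13-acetate (PMA) with 1 uM ionomycin for 4 h (T1). PMA activates protein kinase C and Ras activators of lymphocytes, and ionomycin lets calcium into the cell, so that the pair bypasses the antigen receptor. A/J and C57BL/6J had 4 arrays at each time, and the other strains 3. The labels call the replicates biological but do not say whether a replicate number marks 1 animal at both times. The sources used here do not say whether T0 cells were cultured for the same hours, so culture and stimulus cannot be told apart. Values are log2 intensities, in which a difference of 1 is a doubling. They compare samples for 1 gene and do not rank different genes by abundance.

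Sprouty and Spred proteins are inducible or resident inhibitors of the Ras to ERK kinase pathway, which carries growth factor and antigen receptor signals to the nucleus. RGS proteins speed up GTP hydrolysis by G protein alpha subunits and so shorten the signals of G protein-coupled receptors, among them the chemokine receptors that steer lymphocytes through lymphoid tissue. In T cells, ERK signals induce several of their own inhibitors, and Rgs1 and Rgs16 are known as genes of activated lymphocytes.

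The defining T cell markers were measured at T0 at mean levels of 9.46 for Cd3e, 11.12 for Cd3g and 9.40 for Cd4. They were lower at T1 as well, at 8.72, 9.46 and 8.54. Markers of other cells were also present. The mean level of 9 B cell markers ran from 7.13 to 8.78 over the T0 arrays and from 6.32 to 7.10 over the T1 arrays. The mean of 7 neutrophil markers ran from 5.08 to 7.60 at T0 and from 4.43 to 5.92 at T1. These samples hold many cells, so fewer cells of a type and less RNA per cell cannot be told apart. Replicate 2 of Balb/c at T1 stood apart from the rest of its group over all genes, and no member lost a call when it was left out. Replicate numbers 1 and 2 lay apart from numbers 3 to 5 in most strains along the main direction of variation within groups, which held 23.6% of that variation. Results were also computed within each of these sets of arrays, a split chosen after seeing the data. Some strains have only 1 array per time in a set, which is then assumed to vary like the others. These sets hold 18 and 16 arrays, and the share of all genes called for a response that differed between strains was 0.976% and 1.5% in them.

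The 250 bases before the transcription start are shown for the 3 members with the largest rise or with a response that differed between strains and a window in the RefSeq table of assembly GRCm38.p6. Windows were found for 8 of the 10 genes. Capitals mark the only match in these 8 genes to a searched motif, the EGR motif GCGNGGGCG, here on the strand opposite to the gene. The Spry1 window lies at chr3:37639697-37639946 on the plus strand, that of Rgs16 at chr1:153740103-153740352 on the plus strand and that of Rgs2 at chr1:144004150-144004399 on the minus strand. Each is printed 5′ to 3′ on its gene's strand.
Spry1: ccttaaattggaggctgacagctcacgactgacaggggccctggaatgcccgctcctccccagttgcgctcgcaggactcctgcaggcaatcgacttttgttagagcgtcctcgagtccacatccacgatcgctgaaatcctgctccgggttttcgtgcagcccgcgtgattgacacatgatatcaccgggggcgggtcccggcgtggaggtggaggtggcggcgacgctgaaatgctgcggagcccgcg
Rgs16: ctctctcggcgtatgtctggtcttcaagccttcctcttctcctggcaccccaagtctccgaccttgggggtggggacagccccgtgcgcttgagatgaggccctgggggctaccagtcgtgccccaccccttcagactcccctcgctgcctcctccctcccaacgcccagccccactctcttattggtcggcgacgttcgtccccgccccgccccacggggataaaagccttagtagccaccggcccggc
Rgs2: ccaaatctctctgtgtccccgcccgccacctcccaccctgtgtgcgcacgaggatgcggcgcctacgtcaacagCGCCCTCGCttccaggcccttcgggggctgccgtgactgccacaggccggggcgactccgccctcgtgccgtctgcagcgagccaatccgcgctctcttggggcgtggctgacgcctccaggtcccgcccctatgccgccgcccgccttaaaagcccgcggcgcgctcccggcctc
The Rgs2 match lies from -176 to -168 relative to the start. Both strands were searched for AP-1 (TGANTCA), CRE (TGACGTCA), EGR (GCGNGGGCG), NFAT (TGGAAA) and the CArG box. Over all 32851 windows of this length, 6.75% held the AP-1 letters, 1.55% the CRE, 4.7% the EGR, 18.6% the NFAT and 1.47% the CArG box letters. A match describes letters and is not a shown binding site, and the lack of one says only that these letters are not in the window. The 3 windows held 62.4% (Spry1), 66.4% (Rgs16) and 72.4% (Rgs2) G and C, against a median of 52.4% over all windows.

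The comparison of T1 with T0 asks how the brakes changed with stimulation, averaged over the 5 strains. All 9 measured genes passed the test at an adjusted p under 0.05 (limma, Benjamini-Hochberg over 11413 genes). Of these, 8 were higher at T1 and 1, Rgs14, was lower. Over all genes tested, 36% were called higher, 46.3% lower and 82.3% in either direction, so being called is common here and the sizes are given too. The median change was 1.25 over the 9 genes and -0.07 over all genes tested. Changes of at least 1 upward were seen in 6.23% of all genes and in 6 of the 9. The members were chosen with earlier results of these data known, so these contrasts describe them and are not independent support.

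**Figure D1:**
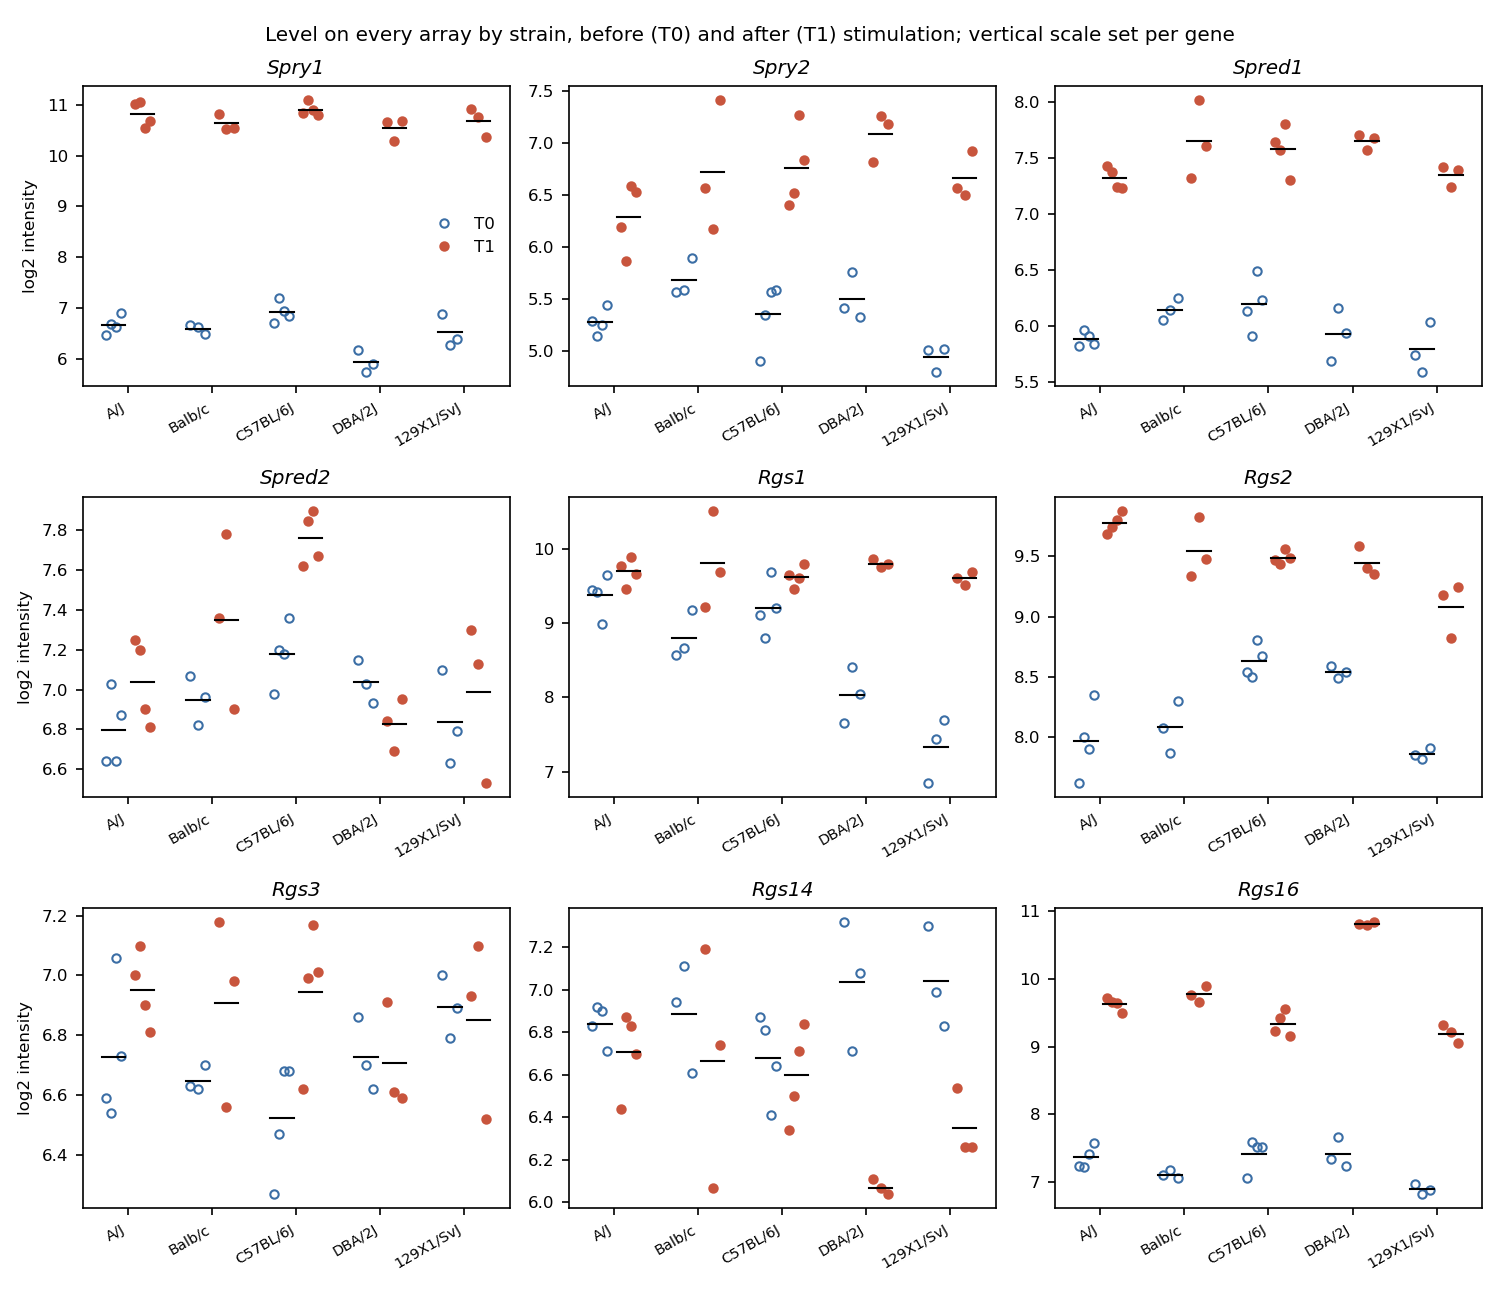
Log2 intensity (vertical axis, scaled per gene) of 9 genes on each of the 34 arrays, by strain, at T0 (open blue) and T1 (filled red), with black bars for group means. Spry1 and Rgs16 separated T0 from T1 in every strain, Rgs1 spread over strains at T0 but not at T1, and DBA/2J stood above the other strains for Rgs16 at T1.

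Among the Ras to ERK inhibitors, Spry1, a Sprouty protein induced by receptor signalling, rose most. Its T0 values were 6.47, 6.69, 6.63 and 6.90 in A/J, 6.66, 6.62 and 6.48 in Balb/c, 6.70, 7.19, 6.94 and 6.84 in C57BL/6J, 6.89, 6.28 and 6.39 in 129X1/SvJ and 6.17, 5.74 and 5.89 in DBA/2J. Its T1 values were 11.01, 11.06, 10.55 and 10.67 in A/J, 10.82, 10.53 and 10.55 in Balb/c, 10.83, 11.10, 10.89 and 10.79 in C57BL/6J, 10.91, 10.76 and 10.36 in 129X1/SvJ and 10.66, 10.28 and 10.68 in DBA/2J. The lowest T1 array lay far above the highest T0 array, with no overlap in any strain. The mean change was 4.19 (SE 0.07, adjusted p = 3.09e-29), or 18.2-fold, and T1 was higher in 17 of 17 pairs of arrays with the same strain and number. Only 8 genes of those tested, Spry1 included, had a mean rise of at least this size. Per strain the rise ran from 3.98 in C57BL/6J (95% interval 3.69 to 4.28) to 4.61 in DBA/2J (4.26 to 4.95), and the test for a difference in response between strains gave an adjusted p of 0.368.

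Spry2, a second Sprouty protein, rose by a smaller amount. Its T0 group means lay between 4.94 (129X1/SvJ) and 5.68 (Balb/c), and its T1 group means between 6.29 (A/J) and 7.09 (DBA/2J). T1 was higher in all 17 pairs, by 1.35 on average (SE 0.10, adjusted p = 1.55e-13), or 2.56-fold. The T0 means of A/J (5.28) and 129X1/SvJ were under the limit of 5.327, the median of all values, below which a level is not shown to be above background, so the size of the rise is not exact. In Balb/c the rise of 1.04 fell to 0.69 (adjusted p = 0.0112) without T1 replicate 4, whose value of 7.42 was well above the 6.57 and 6.18 of the other arrays.

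Spred1, a membrane-bound inhibitor that recruits the Ras inactivator neurofibromin, rose evenly over the strains. Its T0 group means lay between 5.79 and 6.19 and its T1 group means between 7.32 and 7.65, and the arrays of both times did not overlap in any strain. It changed by 1.52 on average (SE 0.06, adjusted p = 1.23e-19), or 2.87-fold, in 17 of 17 pairs. The rises per strain ran from 1.38 in C57BL/6J to 1.72 in DBA/2J, and the adjusted p of the difference in response was 0.811.

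Spred2, the second Spred protein measured, changed little on average and did so through some strains. Its T0 values were 6.64, 7.03, 6.64 and 6.87 in A/J, 7.07, 6.82 and 6.96 in Balb/c, 6.98, 7.20, 7.18 and 7.36 in C57BL/6J, 7.10, 6.63 and 6.79 in 129X1/SvJ and 7.15, 7.03 and 6.93 in DBA/2J. Its T1 values were 7.25, 7.20, 6.90 and 6.81 in A/J, 7.36, 7.78 and 6.90 in Balb/c, 7.62, 7.85, 7.90 and 7.67 in C57BL/6J, 7.30, 7.13 and 6.53 in 129X1/SvJ and 6.84, 6.69 and 6.95 in DBA/2J. T0 and T1 overlapped in every strain but C57BL/6J. The mean change was 0.23 (SE 0.08, adjusted p = 0.00664), with T1 higher in 12 of 17 pairs. It was called in C57BL/6J (0.58, adjusted p = 0.00187) and not in the other strains, where it ran from -0.21 in DBA/2J to 0.40 in Balb/c. The second probe set of the gene gave -0.17 on average (adjusted p = 0.158), and the mean of both gave 0.03 (adjusted p = 0.758) overall and 0.26 in C57BL/6J (adjusted p = 0.213), so the call rests on the brighter probe set. Within replicate numbers 3 to 5 the mean change was 0.03 (adjusted p = 0.755), against 0.34 (adjusted p = 0.00483) within numbers 1 and 2.

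Among the RGS genes, Rgs16, which acts on the Gi and Gq classes of alpha subunit, rose most. Its T0 values were 7.24, 7.22, 7.41 and 7.57 in A/J, 7.10, 7.17 and 7.05 in Balb/c, 7.05, 7.59, 7.51 and 7.51 in C57BL/6J, 6.97, 6.82 and 6.88 in 129X1/SvJ and 7.34, 7.66 and 7.23 in DBA/2J. Its T1 values were 9.72, 9.66, 9.64 and 9.50 in A/J, 9.76, 9.66 and 9.90 in Balb/c, 9.23, 9.42, 9.56 and 9.16 in C57BL/6J, 9.32, 9.22 and 9.05 in 129X1/SvJ and 10.82, 10.80 and 10.85 in DBA/2J. T0 and T1 were fully separate, and the DBA/2J arrays stood above all others at T1. On average it rose by 2.52 (SE 0.06, adjusted p = 1.02e-26), or 5.71-fold, in 17 of 17 pairs.

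Rgs2, which acts mainly on Gq alpha subunits, rose in every strain. Its T0 values were 7.62, 8.00, 7.90 and 8.35 in A/J, 8.08, 7.87 and 8.30 in Balb/c, 8.54, 8.50, 8.81 and 8.67 in C57BL/6J, 7.85, 7.82 and 7.91 in 129X1/SvJ and 8.59, 8.49 and 8.54 in DBA/2J. Its T1 values were 9.69, 9.74, 9.80 and 9.88 in A/J, 9.34, 9.83 and 9.48 in Balb/c, 9.47, 9.44, 9.56 and 9.49 in C57BL/6J, 9.18, 8.82 and 9.25 in 129X1/SvJ and 9.59, 9.40 and 9.35 in DBA/2J. The times did not overlap within a strain. The average rise was 1.25 (SE 0.06, adjusted p = 2.87e-18), or 2.38-fold, in 17 of 17 pairs.

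Rgs1, which acts on Gi alpha subunits and is known to dampen chemokine responses of lymphocytes, rose on average but unequally. Its T0 values were 9.44, 9.42, 8.98 and 9.64 in A/J, 8.57, 8.67 and 9.17 in Balb/c, 9.11, 8.80, 9.68 and 9.20 in C57BL/6J, 6.85, 7.44 and 7.69 in 129X1/SvJ and 7.65, 8.41 and 8.04 in DBA/2J. Its T1 values were 9.77, 9.46, 9.88 and 9.66 in A/J, 9.21, 10.51 and 9.69 in Balb/c, 9.64, 9.45, 9.60 and 9.79 in C57BL/6J, 9.60, 9.51 and 9.69 in 129X1/SvJ and 9.86, 9.75 and 9.79 in DBA/2J. Stimulated arrays lay between 9.21 and 9.88 in every strain apart from Balb/c replicate 2 at 10.51, whereas unstimulated arrays ran from 6.85 to 9.68. The mean change was 1.16 (SE 0.10, adjusted p = 1.4e-11), or 2.23-fold, in 16 of 17 pairs and fell to 1.09 with Balb/c T1 replicate 2 left out.

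Rgs3 moved least of the genes that were higher at T1. This larger RGS protein, made in several isoforms, had T0 group means between 6.53 and 6.89 and T1 group means between 6.71 and 6.95, and its arrays overlapped in all strains. Averaged over strains, the change was 0.17 (SE 0.07, adjusted p = 0.0246), or 1.12-fold, in 11 of 17 pairs. The adjusted p rose to 0.0551 without 129X1/SvJ T1 replicate 2, to 0.0557 without Balb/c T1 replicate 1 and to 0.0507 without DBA/2J T1 replicate 2. Within replicate numbers 3 to 5 the change was 0.05 (adjusted p = 0.586) and within numbers 1 and 2 it was 0.27 (adjusted p = 0.0156). A further quantile normalization gave 0.29 (adjusted p = 0.000509). The second probe set of the gene gave 0.20 (adjusted p = 0.0168).

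Rgs14, which also binds Ras family proteins and Gi alpha subunits through separate domains, was the 1 member that fell. Its T0 values were 6.83, 6.92, 6.90 and 6.71 in A/J, 6.94, 7.11 and 6.61 in Balb/c, 6.87, 6.81, 6.41 and 6.64 in C57BL/6J, 7.30, 6.99 and 6.83 in 129X1/SvJ and 7.32, 6.71 and 7.08 in DBA/2J. Its T1 values were 6.44, 6.87, 6.83 and 6.70 in A/J, 7.19, 6.07 and 6.74 in Balb/c, 6.34, 6.50, 6.71 and 6.84 in C57BL/6J, 6.54, 6.26 and 6.26 in 129X1/SvJ and 6.11, 6.07 and 6.04 in DBA/2J. The times were separate in DBA/2J and 129X1/SvJ and overlapped in the other strains. The mean change was -0.42 (SE 0.08, adjusted p = 3.58e-05), with T1 higher in 4 of 17 pairs. The fall was called in DBA/2J (-0.97, 95% interval -1.36 to -0.57, adjusted p = 8.2e-05) and 129X1/SvJ (-0.69, -1.08 to -0.29, adjusted p = 0.0032), and the other strains gave -0.22 to -0.08. The 129X1/SvJ call was lost within replicate numbers 3 to 5 (-0.57, adjusted p = 0.0542). The B cell marker mean also went from its highest T0 levels in these strains, 8.43 and 8.38, to 6.92 and 6.93 at T1, and its part in the result was not tested.

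Tested within each strain, 5 of the 9 genes were called in A/J, where 56.6% of all genes were. There were 6 in Balb/c, where 54.7% of genes were called. The count was 7 for C57BL/6J, with 63.7% of genes, 7 for DBA/2J, with 60%, and 7 for 129X1/SvJ, with 56.3%. Spry1, Spry2, Spred1, Rgs2 and Rgs16 made up the 5 of A/J and were called in every other strain too. Rgs1 was added in Balb/c, DBA/2J and 129X1/SvJ, Spred2 and Rgs3 in C57BL/6J, and Rgs14 in DBA/2J and 129X1/SvJ. The C57BL/6J call of Rgs3 (0.42, adjusted p = 0.00994) was lost without T0 replicate 1 (0.33, adjusted p = 0.0525) and within replicate numbers 1 and 2 (0.43, adjusted p = 0.0636), and the gene's second probe set gave 0.26 there (adjusted p = 0.146). Within numbers 1 and 2 alone, Rgs3 passed in A/J (0.48, adjusted p = 0.0422) and Spred2 in Balb/c (0.63, adjusted p = 0.0136).

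**Figure D2:**
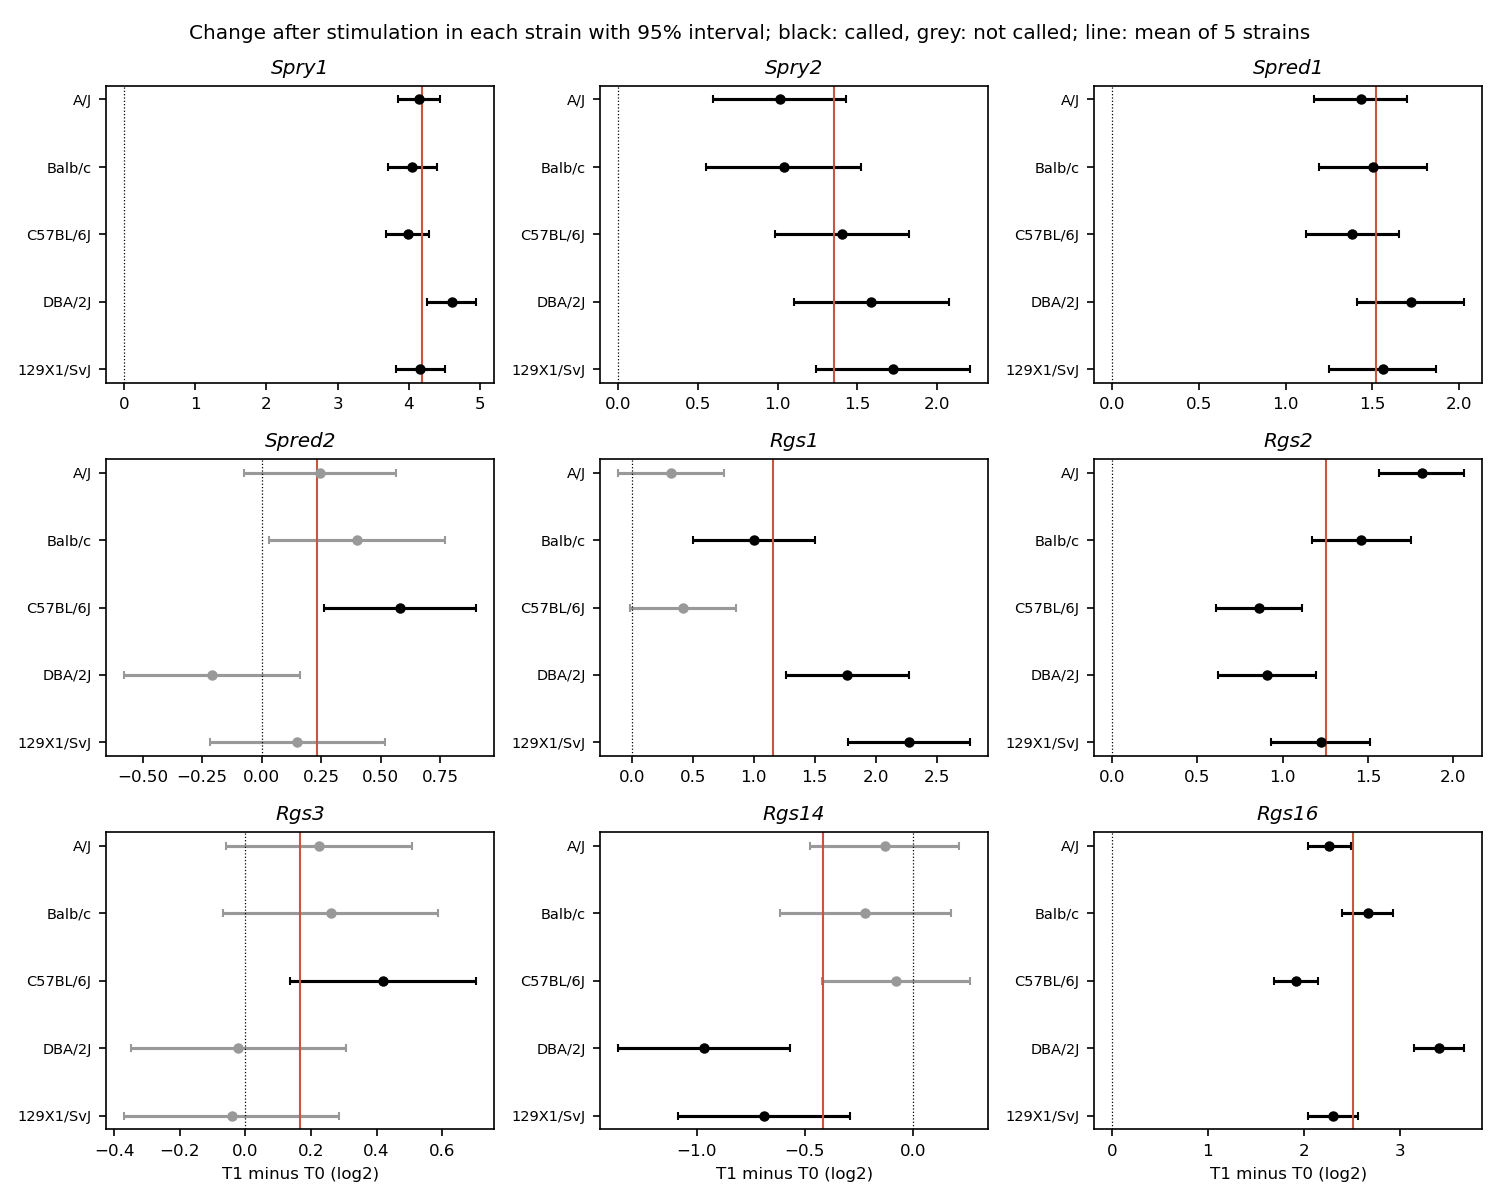
Change from T0 to T1 on the log2 scale (horizontal axis, scaled per gene) for 9 genes in 5 strains, as the fitted difference with its 95% interval, black where called, grey where not, with a red line at the mean of 5 strains. Spry1 rose by 3.98 to 4.61 in every strain, while Rgs1 ran from 0.32 in A/J to 2.27 in 129X1/SvJ.

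The F test over strains at T0 asks which brakes differed between strains before stimulation. It called 4 of the 9 genes, Rgs1, Rgs2, Spry1 and Rgs16, against 18.5% of all genes tested. Rgs1 had the widest range, 2.05 between A/J and 129X1/SvJ (adjusted p = 1.04e-07), a 4.13-fold difference, and 0.929% of genes tested had a T0 range at least as wide. The order of its means was A/J at 9.37 ± 0.28 (SD, n = 4), C57BL/6J at 9.20 ± 0.37 (n = 4), Balb/c at 8.80 ± 0.32 (n = 3), DBA/2J at 8.03 ± 0.38 (n = 3) and 129X1/SvJ at 7.33 ± 0.43 (n = 3). Neighbours in this order overlapped except Balb/c and DBA/2J, which were separated by 0.77. The range was 2.29 within replicate numbers 1 and 2 (adjusted p = 0.00149) and 1.75 within numbers 3 to 5 (adjusted p = 0.00189).

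Levels of marker lists also differed between strains at T0. The B cell marker mean was 8.43 in DBA/2J and 8.38 in 129X1/SvJ, the strains lowest in Rgs1, and 7.59 to 7.84 in the other 3. The list of 7 genes of regulatory T cells was lowest in the same strains, at 8.24 and 8.13, against 8.49 to 8.58. That list holds Il2ra, Ctla4 and Tnfrsf4, which activated T cells also express. Its defining gene Foxp3 did not follow the list: it was lowest in C57BL/6J at 7.50, with DBA/2J at 7.77, 129X1/SvJ at 7.83, A/J at 8.17 and Balb/c at 8.21, a range of 0.71 (adjusted p = 0.0394). The CD4 T cell marker mean was lowest in DBA/2J and 129X1/SvJ too, at 9.66 and 9.60, against 9.72 to 9.90. The DBA/2J arrays, from 9.56 to 9.83, overlapped those of C57BL/6J, from 9.65 to 9.78. Cd4 itself did not follow that list: it was highest in DBA/2J at 9.58 and was not called (adjusted p = 0.504). Dendritic cell markers were highest in DBA/2J and 129X1/SvJ, at 6.67 and 6.51 against 5.86 to 6.20. The monocyte and macrophage mean was also highest in these strains, at 7.23 and 7.36 against 6.90 to 6.99, but arrays overlapped between strains. The C57BL/6J arrays, for 1, ran from 6.42 to 7.71 and those of DBA/2J from 6.75 to 7.61. Of the 9 monocyte and macrophage genes, the F test called 2 at T0, and not Csf1r (adjusted p = 0.987) or Lyz2 (adjusted p = 0.978). Erythroid markers had the widest spread of these lists, from 8.64 in A/J to 5.27 in 129X1/SvJ, with DBA/2J at 8.18, Balb/c at 7.89 and C57BL/6J at 6.88. Neutrophil markers ran from 7.42 in A/J to 5.33 in C57BL/6J. The part of these in the Rgs1 result was not tested.

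Rgs2 divided the strains differently at T0. C57BL/6J at 8.63 ± 0.14 (SD, n = 4) and DBA/2J at 8.54 ± 0.05 (n = 3) lay above Balb/c, A/J and 129X1/SvJ, whose means were 8.09, 7.97 and 7.86. No array of the upper strains overlapped those of the lower ones. The range of 0.77 had an adjusted p of 3.55e-05 and was called within both sets of replicate numbers (0.79 with adjusted p = 0.0287, and 0.83 with adjusted p = 0.0379).

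Spry1 was lowest in DBA/2J at T0, at 5.93 ± 0.22 (SD, n = 3), and highest in C57BL/6J at 6.92 ± 0.21 (n = 4), a range of 0.99 (adjusted p = 0.000358). The DBA/2J arrays lay below all arrays of the other strains, which overlapped their neighbours. The range was 0.78 within replicate numbers 1 and 2 (adjusted p = 0.368) and 1.07 within numbers 3 to 5 (adjusted p = 0.00427). For Rgs16 the T0 range was 0.53 (adjusted p = 0.00441), from 7.42 in C57BL/6J to 6.89 in 129X1/SvJ. Balb/c and 129X1/SvJ lay below the arrays of the other 3 strains, apart from C57BL/6J replicate 1 at 7.05. The call was lost within numbers 1 and 2 (adjusted p = 0.42) and within numbers 3 to 5 (adjusted p = 0.204).

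At T1 the same test called 4 of the 9 genes, Rgs16, Spred2, Rgs2 and Rgs14, against 31% of all genes tested. Rgs16 had the widest range, 1.63 (adjusted p = 3.69e-10), or 3.09-fold, and 1.22% of genes tested had a T1 range at least as wide. Its mean was 10.82 ± 0.03 (SD, n = 3) in DBA/2J, 9.77 ± 0.12 (n = 3) in Balb/c, 9.63 ± 0.09 (n = 4) in A/J, 9.34 ± 0.18 (n = 4) in C57BL/6J and 9.19 ± 0.14 (n = 3) in 129X1/SvJ. DBA/2J lay 1.05 above Balb/c with no overlap, and all later neighbours overlapped. The call held within replicate numbers 1 and 2 (range 1.55, adjusted p = 0.00284) and within numbers 3 to 5 (1.78, adjusted p = 0.000533).

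Spred2 at T1 was highest in C57BL/6J, at 7.76 ± 0.14 (SD, n = 4), and lowest in DBA/2J, at 6.83 ± 0.13 (n = 3), a range of 0.93 (adjusted p = 0.000437) in which neighbouring strains overlapped. Its second probe set had a T1 range of 0.73 (adjusted p = 0.121). Within numbers 1 and 2 the adjusted p was 0.0977 and within numbers 3 to 5 it was 0.00231. Rgs2 at T1 was lowest in 129X1/SvJ, at 9.08 ± 0.23 (n = 3), below every array of the other strains, and highest in A/J at 9.78 ± 0.08 (n = 4), a range of 0.70 (adjusted p = 0.00328). Within the sets of replicate numbers its adjusted p was 0.0985 and 0.126.

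Rgs14 at T1 was lowest in DBA/2J at 6.07 ± 0.04 (SD, n = 3), below all other arrays except Balb/c replicate 2 at 6.07, and the range of 0.64 was just past the threshold (adjusted p = 0.0353). That call was lost without any 1 of the 3 DBA/2J T1 arrays (highest adjusted p = 0.102), without A/J T1 replicate 2, 4 or 5 and without 129X1/SvJ T1 replicate 4. It was also lost with no filter on low values (adjusted p = 0.0513) and within replicate numbers 1 and 2 (0.54, adjusted p = 0.674), and was kept within numbers 3 to 5 (0.73, adjusted p = 0.0165). Spry2 was not called at T1 (range 0.79, adjusted p = 0.066), but passed within numbers 3 to 5 (0.86, adjusted p = 0.048) and without Balb/c T1 replicate 2 (adjusted p = 0.0194), Balb/c T1 replicate 4 (adjusted p = 0.0141) or C57BL/6J T1 replicate 1 (adjusted p = 0.0486). Rgs1, which had the widest range at T0, ranged over 0.20 at T1 (adjusted p = 0.902), or 0.35 (adjusted p = 0.74) when Balb/c T1 replicate 2 was dropped. Levels of T cell markers differed between strains at T1 too. The CD4 T cell marker mean was 9.09 in DBA/2J and 9.09 in 129X1/SvJ, against 9.48 to 9.71 in the other strains. The part of this in the T1 and response results was not tested.

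The interaction of strain and time asks whether the response itself differed between strains. It was called for Rgs1, Rgs16 and Rgs2, 3 of the 9 genes, against 6.92% of all genes tested. The T0 arrays enter both this test and the test at T0. For Rgs1 the change was 2.27 in 129X1/SvJ (95% interval 1.77 to 2.78), 1.77 in DBA/2J (1.26 to 2.27), 1.00 in Balb/c (0.50 to 1.50), 0.42 in C57BL/6J (-0.01 to 0.86) and 0.32 in A/J (-0.11 to 0.76). The range of 1.95 had an adjusted p of 0.000259. Within the sets of replicate numbers the range was 2.23 (adjusted p = 0.0695) and 1.74 (adjusted p = 0.0614). Leaving out Balb/c T1 replicate 2 brought the Balb/c change to 0.65 (adjusted p = 0.0233), and within replicate numbers 3 to 5 it was 0.53 and not called (adjusted p = 0.254). Leaving out Balb/c T1 replicate 2 also let C57BL/6J pass (adjusted p = 0.0438), as did leaving out C57BL/6J T0 replicate 3 (0.58, adjusted p = 0.0231).

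Rgs16 rose by 3.41 in DBA/2J (95% interval 3.15 to 3.68), or 10.7-fold, and by 1.92 (1.70 to 2.15) to 2.67 (2.40 to 2.93) in the other strains, C57BL/6J being lowest and Balb/c next to DBA/2J. The range of 1.49 had an adjusted p of 8.34e-06, and of 0.101 and 0.0248 within the sets of replicate numbers. Rgs2 rose most in A/J, by 1.81 (1.56 to 2.06), and least in C57BL/6J, by 0.86 (0.61 to 1.11), and DBA/2J, by 0.91 (0.62 to 1.20). Its range of 0.95 had an adjusted p of 0.00193, and of 0.229 and 0.13 within those sets. For Rgs14 the range of 0.89 was not called (adjusted p = 0.076), but was called without Balb/c T1 replicate 1 (0.0351), without Balb/c T1 replicate 2 (1.04, 0.00581) or without DBA/2J T0 replicate 3 (1.05, 0.0382), these being adjusted p values of limma.

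**Figure D3:**
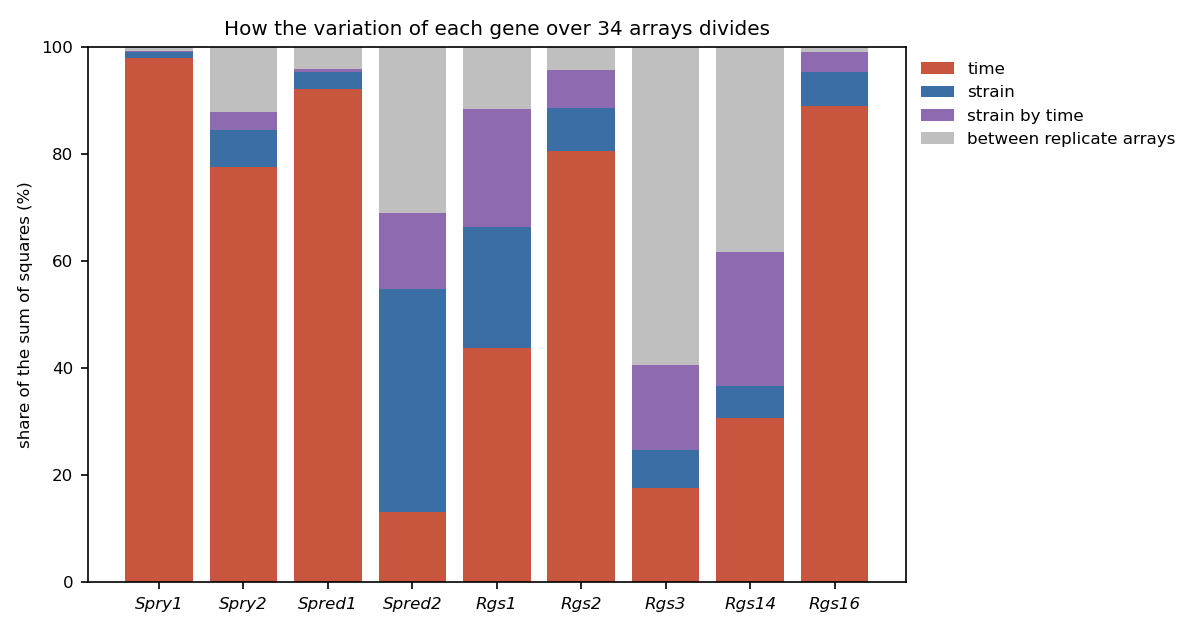
Share of each gene's sum of squares over 34 arrays (vertical axis, percent) that went with time, with strain, with their interaction and with the spread between replicate arrays. Time held 97.9% for Spry1, strain 41.8% for Spred2 and the replicate spread 59.5% for Rgs3.

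The genes thus divided their variation in different ways, as a description without a test. Time held 97.9% for Spry1, 92.2% for Spred1, 89.0% for Rgs16, 80.7% for Rgs2 and 77.5% for Spry2. For Rgs1 it held 43.7%, with 22.7% for strain and 22.1% for the interaction. Strain held the most for Spred2, at 41.8%, and the replicate spread for Rgs3, at 59.5%, and for Rgs14, at 38.3%, beside 25.1% for its interaction.

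Among the other family members, most were too dim to test. Of 15 other RGS genes on the array, 4 reached the limit, and the remaining 11 had no group mean above 5.21. Rgs13, an RGS gene of lymphocytes, went from a mean of 3.38 to 6.10 (2.72, adjusted p = 2.08e-18) and reached the limit through T1 alone, so its size is not exact. Rgs19 fell by 0.67 (adjusted p = 1.04e-12), Rgs12 by 0.30 and Rgs9 by 0.29, and Rgs12 lay under the limit in every strain at T1. Rgs9 also differed between strains at T0, by 0.59 (adjusted p = 0.00674), with its lowest mean, 5.23 in 129X1/SvJ, under the limit. In the RefSeq order of protein-coding genes on chromosome 1, Rgs2, Rgs13 and Rgs1 are consecutive and are followed by Rgs21 and Rgs18, whose highest group means were 2.89 and 4.68. Rgs16 stands next to Rgs8 on the same chromosome, whose highest group mean was 5.06. Of the other 3 Sprouty and Spred genes, Spry4 alone reached the limit, through T1, with a change of 0.54 (adjusted p = 1.22e-08) from a T0 mean of 4.83.

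Genes of the pathways that the brakes act on were described by counts from lists, with no test of a list. The lists were also chosen with earlier results of these data known, so their counts and medians are only a description. Over all genes tested, 36% were called higher and 46.3% lower. Of 22 Ras and ERK cascade genes tested, 3 were called higher, 16 lower and 3 not, with a median change of -0.41. The largest rises were those of Ksr1, a scaffold of the cascade (0.66), Rasa2, a Ras inactivator (0.34), and Tesk1, a kinase that binds Sprouty (0.29). The largest falls were those of Rasa3, a Ras and Rap inactivator (-2.44), Rasgrp3, a Ras activator (-1.68), and Rasal3, another Ras inactivator (-1.50). The T1 means of Rasgrp3 lay between 5.10 and 5.38, at or near the limit, so the size of its fall is not exact. Rasgrp3 also had the largest T0 range of the list, 1.85 (adjusted p = 1.49e-08).

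The 17 genes listed as outputs of ERK signalling went the other way in nearly every case. Of these, 16 were called higher and 1, Mcl1, lower, with a median of 1.80. Etv4 and Etv5 (highest T0 group mean 5.29 for both) reached the limit through T1 alone, so they could enter only as higher. The largest rises were those of the transcription factors Fos (3.76), Egr2 (3.24) and Myc (3.22), and Mcl1, a survival factor, fell by 0.72. Fos had the largest T0 range, 1.71 (adjusted p = 4.11e-08). Without 1 array at a time, 16 or 17 of the list were called.

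On the G protein side, 16 subunit genes were tested, of which 5 were called higher, 9 lower and 2 not, with a median of -0.18. These counts stand beside 36% called higher and 46.3% lower over all genes tested, as do those of the receptors below. Gnaq, the Gq alpha subunit that Rgs2 and Rgs16 act on, rose by 0.69, and the gamma subunits Gng5 and Gng12 by 0.34 and 0.22. Gnai2, the main Gi alpha subunit of lymphocytes, fell by 1.50, the beta subunit Gnb4 by 1.23 and the alpha subunit Gna15 by 0.97. The T1 means of Gna15 were all under the limit, with a highest of 4.86, so its fall is not exact in size. Gng7, one of the 5 called higher, reached the limit through T1 alone. Gna15 and Gnb5, among the 9 called lower, reached it through T0 alone, so the filter favoured these directions for them. Gng10 had the largest T0 range, 0.98 (adjusted p = 1.79e-08). Of 18 chemoattractant and lipid receptor genes tested, 7 were called higher and 11 lower, with a median of -0.74. The rises were led by the chemokine receptor Ccr8 (3.48), the prostaglandin receptor Ptger4 (1.83) and the oxysterol receptor Gpr183 (1.68). The falls were led by the sphingosine phosphate receptor S1pr1 (-3.24), which drives exit from lymphoid organs, the cannabinoid receptor Cnr2 (-2.64) and S1pr4 (-2.53). Cnr2 had no T1 group mean above 4.41, under the limit, so neither the size of its fall nor its rank is exact. Ccr6 and Cnr2, among the 11 called lower, reached the limit through T0 alone, so the filter favoured a lower call for them. Ccr8 had the largest T0 range, 2.16 (adjusted p = 4.9e-08), with its lowest mean, 5.30 in 129X1/SvJ, just under the limit. Of the 9 B cell markers tested, 7 fell as well, while Cr2 rose by 0.93 and Ebf1 by 0.44. The part of B cells in the falls of receptors that they also express was not tested.

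**Figure D4:**
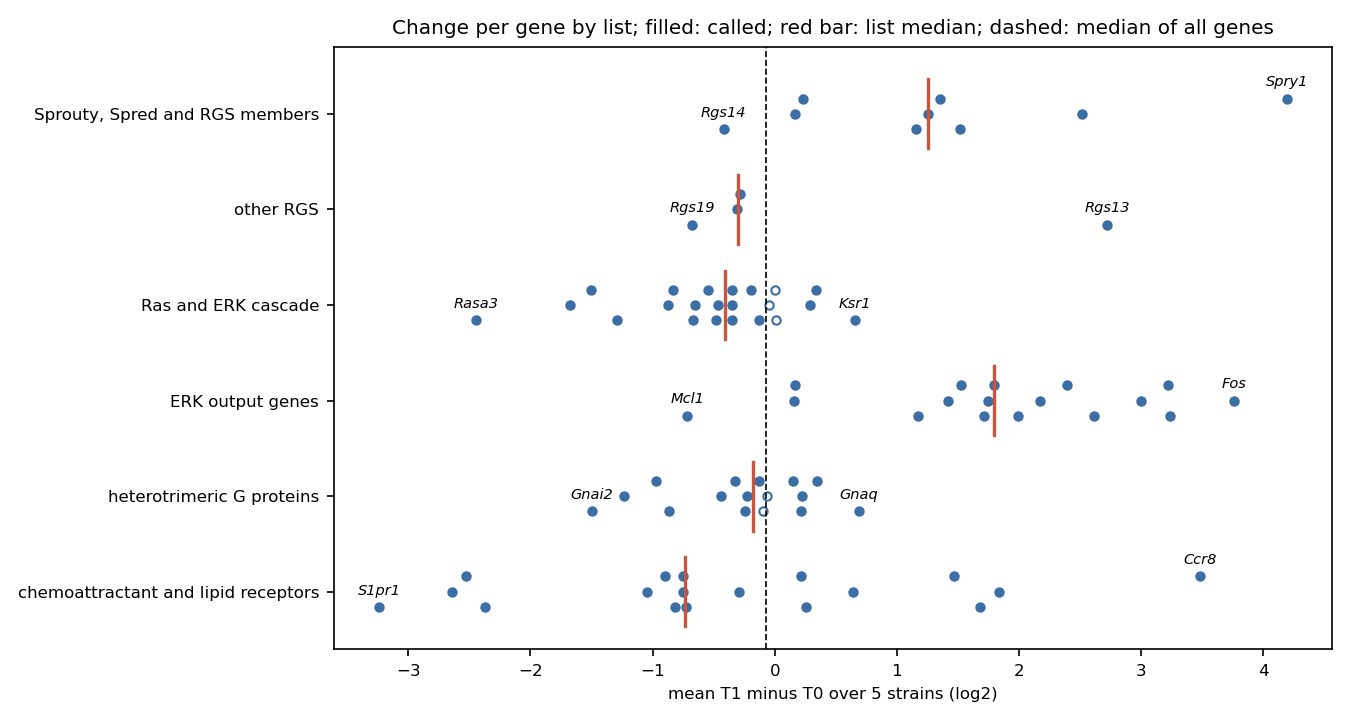
Mean change from T0 to T1 over 5 strains (horizontal axis, log2) for each tested gene, by list, filled where called, with the list median in red and the median of all genes dashed. The members centred on 1.25 and the ERK output genes on 1.80, while the cascade, G protein and receptor lists centred below 0.

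For the members whose group means spanned at least 1, the genes with the most similar pattern were found by the root mean square difference over the 10 group means, each centred on the gene's own mean. This is a description over groups that all share the contrast of T0 with T1. The closest to Spry1 were Lif (0.16), Fosb (0.24) and Mfsd2a (0.32), and to Spry2 Umps, Il15ra and Tomm5 (all at 0.21). The closest to Spred1 were Pwp1 (0.11), Snrpa1 (0.12) and Hccs (0.13). The closest to Rgs1 were the costimulatory receptors Tnfrsf9 (0.26) and Tnfrsf4 (0.30) with Rragd (0.30), whose T0 ranges were 1.76, 1.12 and 1.57. For Rgs2 they were the ERK phosphatase Dusp5 (0.18), Noct (0.20) and Frat2 (0.21). For Rgs16 they were the chemokine Ccl1 (0.29), Crtam (0.30) and the growth factor Hbegf (0.30), whose T1 ranges were 1.85, 0.99 and 1.30. The span was under 1 for Spred2, Rgs3 and Rgs14, and no gene was named for them.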

How the data were processed

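RNA of 34 samples (10 groups) was measured on Affymetrix arrays. Per the labels' processing notes, the authors used RMA, which corrects background, quantile-normalizes the arrays and sums each probe set, and deposited log2 intensities. The sources used here do not give its version, the probe set definitions or any filter. Of 35556 probe sets, 21789 had 1 symbol, 1621 several and 12146 none in the platform annotation. Each of 19938 genes was given its brightest probe set over all arrays. The 11413 genes kept had a highest group mean of at least 5.327, which is the median over the whole table.

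One linear model with 10 group means was fitted to all arrays with limma 3.58.1 in R 4.3.3, with Benjamini-Hochberg adjustment over these 11413 genes and calls at an adjusted p under 0.05. The model assumes independent arrays, although cells were split into T0 and T1 samples, and leaves out any pairing by number. Its tests set each difference against the spread between arrays within groups, pooled over the 10 groups and moderated over genes. The number of arrays, 3 or 4 per group, limits the precision. The pipeline was tested on simulated data. The members and gene lists were chosen with earlier results of these data known. The named genes are all members, the 3 largest called rises and falls and the largest called T0 range per list, and the 3 genes most like each member of span at least 1. RefSeq promoter windows came from GRCm38.p6, read with Python 3.11.15.

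Alternatives were no filter, the mean of all probe sets, a further quantile normalization, median centring, a trended robust fit, blocks for replicate number and leaving out each array. Subsets of replicate numbers were added after seeing the data.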

Additional observations from a re-analysis of the deposited data

Results flagged for a closer look

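In C57BL/6J at T0, the Rgs16 level of replicate 1 was 7.05, while the other 3 arrays lay at 7.51 to 7.59. It was the 1 array that stood apart in this way among 36 sets of values of groups with 4 arrays, of which chance alone marks about 1 in 20.

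The response differed between strains for 3 genes by the limma interaction test, with a range over the 5 strains of 1.95 for Rgs1 (adjusted p = 0.000259), 0.95 for Rgs2 (adjusted p = 0.00193) and 1.49 for Rgs16 (adjusted p = 8.34e-06).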

How the results depend on the processing

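Among the values of single members under the alternatives, 3406 kept their direction and side of the threshold, 32 lost a call, 25 gained one and 20 changed sign, none of the last being called. With no filter on low values, 9 of the 15 other RGS genes on the array were called, against all 4 that reached the limit. Over all 19938 genes, 8040 were then called higher and 5623 lower. The 11 other RGS genes not kept had no group mean above 5.21, under the limit. With replicate numbers 1 and 2 alone, limma called 2 members between strains at T0, 1 at T1 and 0 in response (4 at an unadjusted p under 0.05), and with numbers 3, 4 and 5 alone, it called 1 in response, each subset holding fewer arrays. Calls of single genes at T0 and T1 within numbers 3, 4 and 5 are given in the Results. Some strains have only 1 array per time in a subset and each subset holds fewer arrays. A call lost there does not show that a difference is absent. Without 1 array at a time, the members called ran from 8 to 9 for the mean change and stayed at 4 at T0. Those called ran from 3 to 5 at T1 and from 3 to 4 in response. Signs changed for Spred2 in 129X1/SvJ with the mean of probe sets (-0.023), for Rgs3 in DBA/2J with that mean (0.012), and with a further quantile normalization for Rgs3 in DBA/2J (0.13) and 129X1/SvJ (0.063) and Rgs14 in C57BL/6J (0.062). They changed with numbers 1 and 2 for Rgs3 in DBA/2J (0.053) and 129X1/SvJ (0.12), and with numbers 3, 4 and 5 for Spred2 in Balb/c (-0.058) and 129X1/SvJ (-0.26), Rgs3 in A/J (-0.035) and Rgs14 in Balb/c (0.13) and C57BL/6J (0.26). Leaving out 1 array gave -0.008 to 0.38 for Spred2 in 129X1/SvJ, -0.12 to 0.044 for Rgs3 in DBA/2J, -0.17 to 0.12 for Rgs3 in 129X1/SvJ, -0.48 to 0.076 for Rgs14 in Balb/c and -0.17 to 0.007 for Rgs14 in C57BL/6J. The cause was not tested. Deviations from the group means of T0 and T1 arrays with the same strain and number correlated from -0.078 to 0.474, over 0.1 in 14 of 17 pairs. The labels do not say whether a number marks 1 animal at both times, so the main model did not pair samples. These correlations do not show that pairing is absent. Of 34 arrays, 25 correlated best with their own number at the other time, a hint of pairing from the data. Cells were also split into T0 and T1 samples, so a shared number may mark 1 preparation. The main model leaves out such a pairing. With strain and number as a random replicate block in limma, Rgs14 gained a call in response (adjusted p = 0.0302), and Spred2 passed in Balb/c (adjusted p = 0.037). With the number as a fixed block, Spry2 gained calls at T0 (adjusted p = 0.0164) and T1 (adjusted p = 0.0169). Rgs14 lost its call at T1 there (adjusted p = 0.0747). Levels under 5.327 are not shown to lie above background, which limits the sizes for Spry2. Among the genes of the pathway lists, every T0 group mean lay under it for Spry4, Rgs13, Etv4, Etv5 and Gng7. Every T1 group mean did for Rgs12, Gna15, Gnb5, Ccr6 and Cnr2. The sizes of these genes are limited too. Group means lay on both sides of it for Rasgrp3, Rgs9 and Ccr9 at T1 and for Fosl1, Rgs9 and Ccr8 at T0, among others.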
